A study of Caenorhabditis elegans with 2 samples.

Results

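The genes ftt-2 and par-5 encode the 14-3-3 proteins of Caenorhabditis elegans, and the data map where SYD-9-GFP was precipitated around them in late embryos. They are 2 of the 19973 nuclear protein-coding genes of the annotation used here (Ensembl release 115, assembly WBcel235, the same build as ce11). They were chosen by name with the deposited region scores already known, so the scores and positions below are a description and carry no test. The worms were hermaphrodites of strain OP488, which has the unc-119(tm4063) mutation on chromosome III and the integrated transgene wgIs488, and expressed SYD-9, a zinc finger protein, fused at its C-terminus to GFP and FLAG. Egg bleaching synchronised the animals and chromatin was taken 4 h later, sheared by sonication and precipitated with an antibody to GFP, in 2 biological replicates of 1 group. Another field of the labels names the antibody after SYD-9 itself. Whole embryos were used, so the cells that gave a region are not resolved. Chromatin from worms without the tag was not analysed here, so binding by SYD-9 and signal that does not depend on the tag cannot be told apart.

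14-3-3 proteins form dimers that hold partner proteins phosphorylated on serine or threonine, and can keep such a partner out of the nucleus or block its binding sites. In the worm zygote PAR-5 keeps the anterior and posterior PAR polarity proteins in separate cortical domains. FTT-2 is known in worms for binding DAF-16, the FOXO transcription factor downstream of the insulin receptor, and for holding it in the cytoplasm.

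The authors called regions in each replicate (10468 in replicate 1 and 20425 in replicate 2) and in the pooled alignments (13472). A further list holds the 941 regions that passed an irreproducible discovery rate (IDR) threshold, a measure of agreement between replicates. The pooled list is labelled as peaks and background for input to this step, so an entry in it need not be a peak. All 941 IDR regions had the same summit and score as the 941 highest-scoring pooled regions. No replicate 1 summit lay within 200 bp of 5 IDR regions, and no replicate 2 summit within 200 bp of 1. The score of a region is the authors' own, on a scale that was not stated, so levels are compared within a list and ranks are given with the list's length. A ratio between the replicates' scores is read only against the same ratio at other regions. The lists hold no read counts, and depth per replicate is unknown.

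The sequences that carried the IDR summits at both genes are shown here because everything that follows turns on these 3 places. Each line gives 151 bases around a summit, read from the RefSeq genome (WBcel235), 5′ to 3′ on the minus strand, which is the coding strand of both genes, with the summit at position 76. Capitals mark matches to any of the 8 short motifs described further down, and the first sequence has none.
ftt-2 strongest summit, chrX:11605926-11606076: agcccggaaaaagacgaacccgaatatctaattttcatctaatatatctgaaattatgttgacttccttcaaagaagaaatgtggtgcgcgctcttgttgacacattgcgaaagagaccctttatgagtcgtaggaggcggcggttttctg
ftt-2 second summit, chrX:11606125-11606275: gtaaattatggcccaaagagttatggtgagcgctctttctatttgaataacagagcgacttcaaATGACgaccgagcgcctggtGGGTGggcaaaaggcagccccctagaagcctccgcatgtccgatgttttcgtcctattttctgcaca
par-5 summit, chrIV:11822041-11822191: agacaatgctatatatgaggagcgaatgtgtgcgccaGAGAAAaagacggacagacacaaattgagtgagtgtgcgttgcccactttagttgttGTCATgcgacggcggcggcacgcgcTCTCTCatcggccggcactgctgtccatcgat

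ftt-2 (WBGene00001502, X, 11603708 to 11605419, minus strand) had a pair of strong IDR regions in its upstream intergenic sequence. The stronger region spanned 11605812 to 11606170, with its summit at 11606001 and a score of 361.6. It ranked 29 of 941 overall and 3 of the 230 IDR regions on X. The second region spanned 11606072 to 11606308, with its summit at 11606200 and a score of 265.7, and ranked 72 of 941 and 17 of 230 on X. For scale, the median score of the IDR list was 130.9 and its range was 95.16 to 932.3. The first ftt-2 region thus lay in the top 3.08% of the list and the second in the top 7.65%.

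par-5 (WBGene00003920, IV, 11820506 to 11821924, minus strand) had a single IDR region, near the foot of the list by score. The region spanned 11821886 to 11822345 with its summit at 11822116 and a score of 95.86. It ranked 921 of 941 overall and 126 of the 129 IDR regions on IV. The lowest IDR region scored 95.16 and the first pooled region outside the list scored 95.05, so the par-5 region lay just inside the edge. In the pooled list the highest ftt-2 score was 3.77 times the par-5 score.

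An IDR summit in the gene or within 5000 bp of it was found for 2252 of 19973 nuclear protein-coding genes (11.3%), and 2 or more such summits for 274 genes (1.37%). Among genes with a summit in that window, 73 had a higher top score than ftt-2 and 2205 had a higher one than par-5. Beyond 5000 bp, the nearest further IDR summits lay 56896 bp from ftt-2 and 35492 bp from par-5. In the pooled list the nearest summit beyond the limit lay 5785 bp from ftt-2 (score 36.45) and 8534 bp from par-5 (score 39.65).

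**Figure D1:**
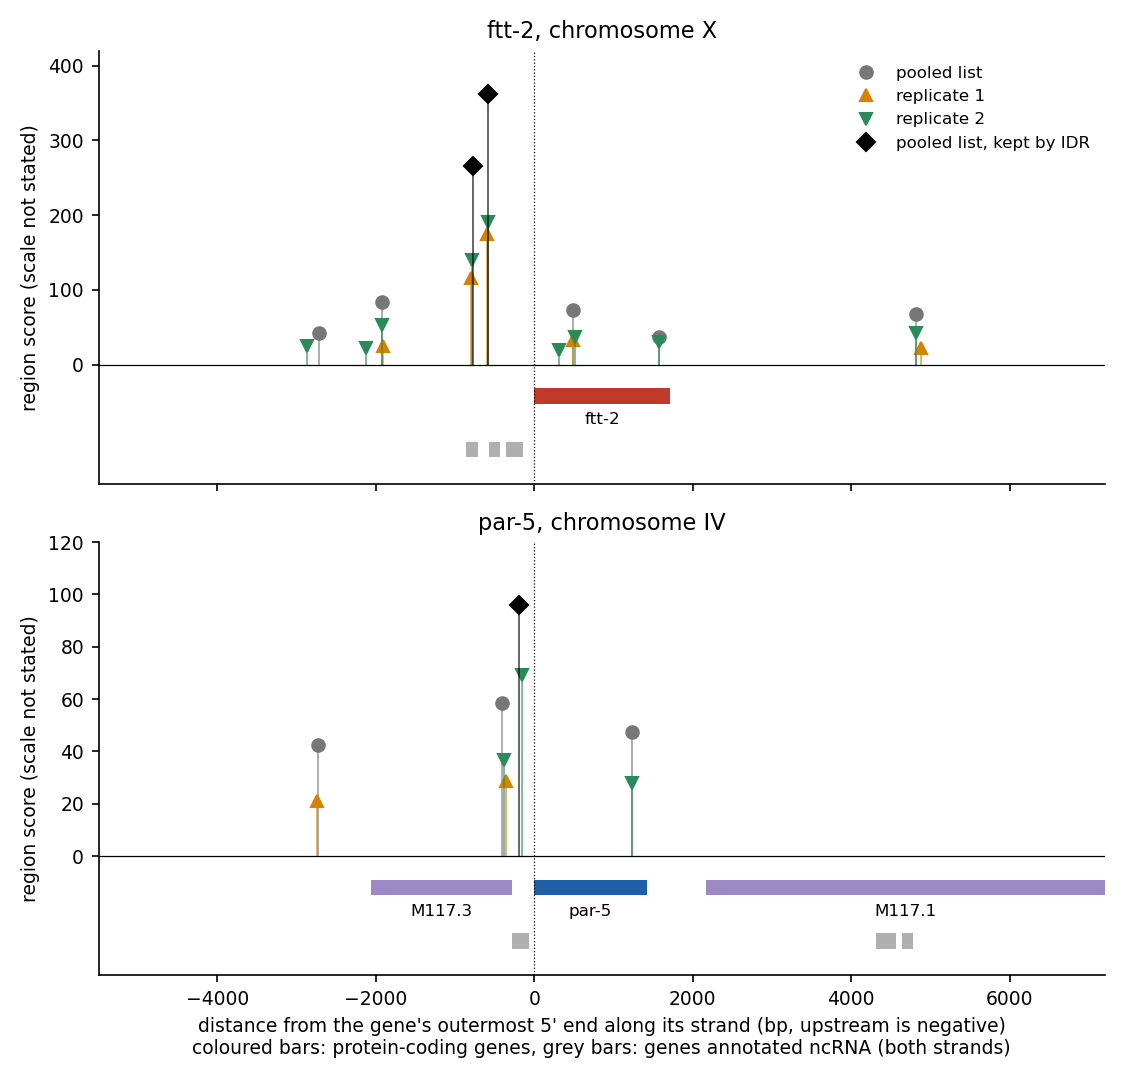
Region summits in the ftt-2 (top) and par-5 (bottom) windows, by distance from the gene's outermost 5′ end along its strand (x axis, bp) and region score (y axis, scale not stated and possibly different from list to list, with its own range in each panel). The pair of IDR summits at ftt-2 stands 582 and 781 bp upstream with scores of 361.6 and 265.7, and the par-5 IDR summit 192 bp upstream with a score of 95.86. Replicate 1 has a marker beside each ftt-2 IDR summit and none at the par-5 IDR summit itself.

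**Figure D2:**
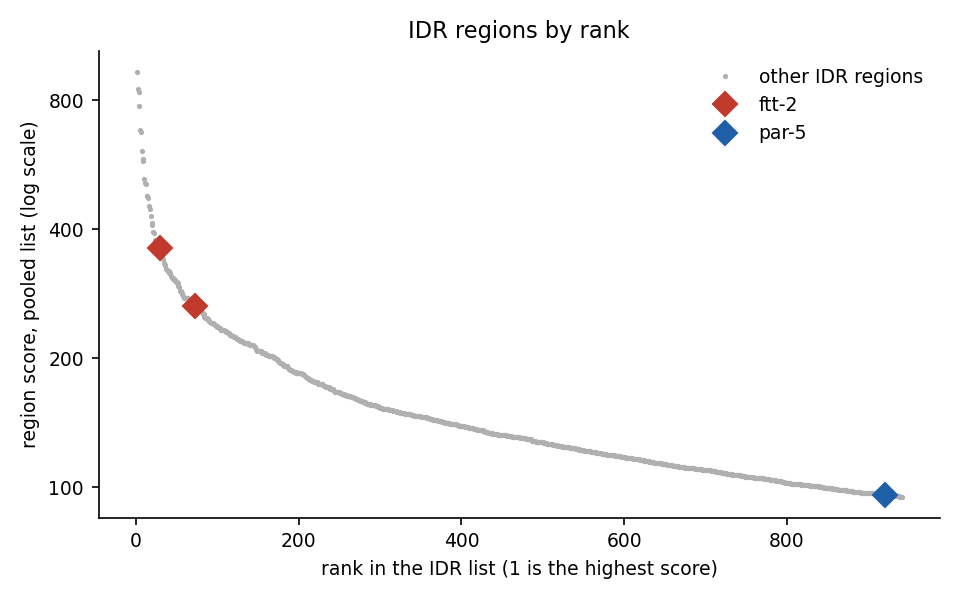
Score in the pooled list (y axis, log scale) against rank (x axis) for the 941 IDR regions. The ftt-2 regions sit at ranks 29 and 72 on the steep part of the curve, and the par-5 region at rank 921.

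Both replicates found the ftt-2 pair, and they placed it at nearly the same bases. The stronger summit scored 174.6 in replicate 1 (rank 26 of 10468, 14 bp from the pooled summit) and 190.4 in replicate 2 (rank 28 of 20425, at the same base). The second scored 116.5 in replicate 1 (rank 85, 15 bp away) and 139.8 in replicate 2 (rank 77, 6 bp away). The summit nearer the gene was the stronger in every list, by 1.36-fold in the pooled list, 1.5-fold in replicate 1 and 1.36-fold in replicate 2. The replicate 2 over replicate 1 score ratios were 1.09 and 1.2, against 1.23 as the median of 935 IDR regions that had a summit of each replicate within 200 bp.

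The replicates differed more at par-5. In replicate 2 its summit lay at 11822077, 39 bp from the pooled summit, with a score of 69.24 and rank 562 of 20425. In replicate 1 the nearest summit lay 166 bp away at 11822282, in the 5′ UTR of the neighbouring gene M117.3, with a score of 28.82 and rank 3290 of 10468. That region also covered the pooled summit. The ratio of the 2 scores was 2.4, above the 90th percentile of 1.89 among IDR regions, but it compares summits at different positions. Replicate 2 also had a summit at 11822304, nearer to the replicate 1 summit, with a score of 36.75. The ratio of 2.4 is therefore not a difference in score at the same place. The ftt-2 score was 6.06 times the highest par-5 score in replicate 1 and 2.75 times in replicate 2. The replicate 1 value at par-5 is that of the summit at 11822282, whose -log10 q-value was 0.292. At so low a value it cannot be told from background. By these scores the order of the paralogues was the same in both replicates while the size of the gap was not.

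**Figure D3:**
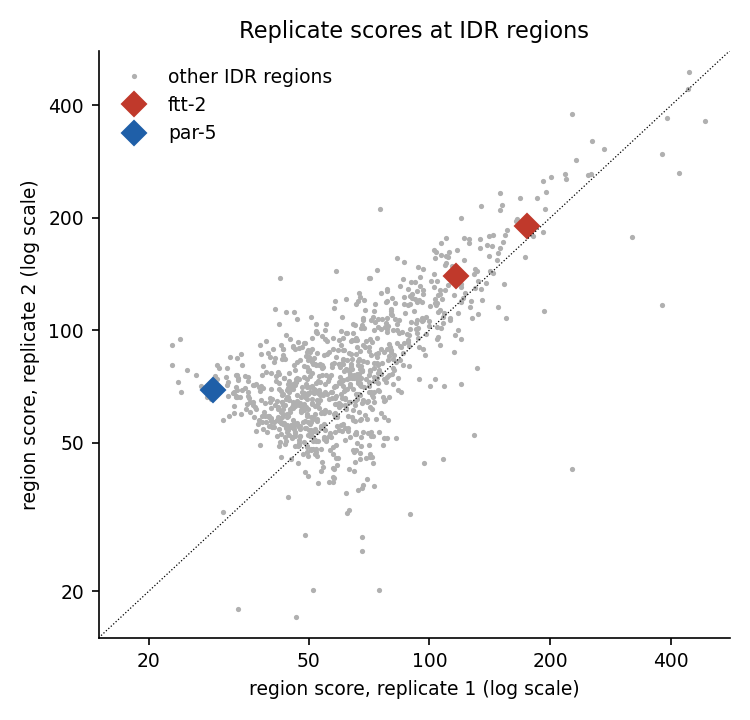
Region score in replicate 1 (x axis) against replicate 2 (y axis), both on log scales, for the 935 IDR regions with a summit of each replicate within 200 bp. The dotted line marks equal numbers, which need not mean equal signal in the 2 lists. The ftt-2 regions lie among the other regions of their score, while par-5 lies at 28.82 and 69.24, where the replicate 1 value belongs to the summit 166 bp away.

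The paralogues differed in where their summits lay relative to the gene. ftt-2 has 2 annotated transcripts. The stronger summit lay 582 bp upstream of the 5′ end of F52D10.3c.1 and 589 bp upstream of that of F52D10.3a.1. The second summit lay 781 and 788 bp upstream of these ends. Of 923 nuclear IDR summits 100 (10.8%) lay 500 to 1000 bp upstream of the nearest coding 5′ end, and 354 (38.4%) lay up to 500 bp upstream. Within 500 bp of a 5′ end ftt-2 has no IDR summit, whereas 487 nuclear coding genes (2.44%) have one. Within 1000 bp ftt-2 is among the 683 genes (3.42%) that do. Worm transcripts are often trans-spliced, so annotated 5′ ends may lie downstream of the sites where transcription starts.

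par-5 has 5 annotated transcripts, and its IDR summit lay 192 bp upstream of the outermost 5′ end (M117.2a.4). The distance was 199 bp for M117.2a.1, M117.2a.2 and M117.2a.3, and 698 bp for the short transcript M117.2b.1. The same summit lay 90 bp upstream of M117.3, a coding gene on the opposite strand, with 281 bp between the 2 genes. The region is therefore shared by 2 divergent genes, and the summit is nearer to M117.3 than to par-5.

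**Figure D4:**
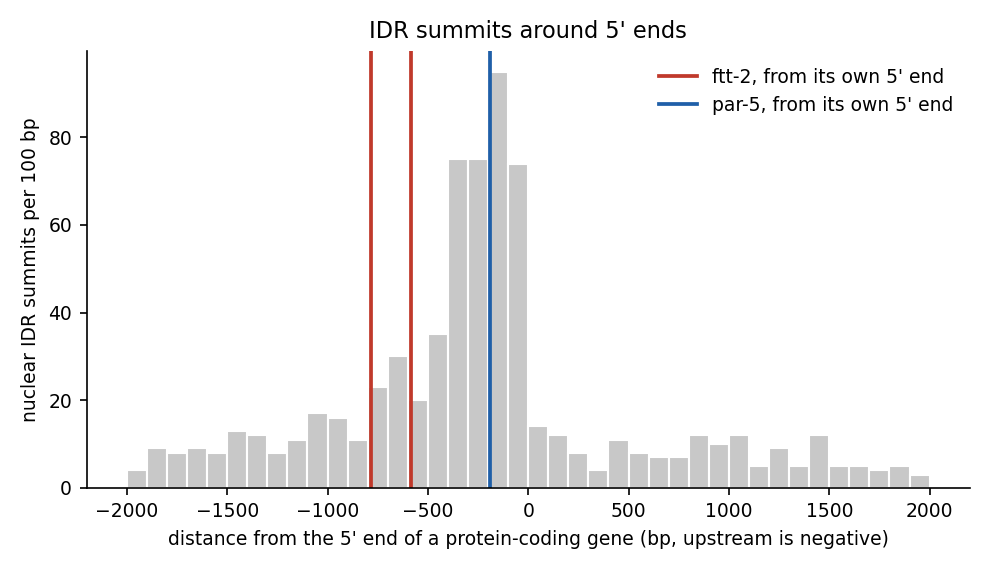
Nuclear IDR summits per 100 bp (y axis) by distance from the nearest protein-coding 5′ end (x axis, bp, upstream negative, shown to 2000 bp on each side). The red lines mark the ftt-2 summits at 582 and 781 bp upstream of its own 5′ end, and the blue line the par-5 summit at 192 bp. The median distance of all nuclear IDR summits, 675 bp, counts both directions alike, so it is not a typical upstream position.

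The surroundings of the paralogues were unlike. The ftt-2 gene stands alone: the nearest coding genes are F52D10.4, with 12050 bp between them on the 5′ side, and F52D10.2, with 11987 bp between them on the 3′ side, and neither had an IDR summit within 500 bp of a 5′ end. The ftt-2 summits lay 11469 and 11270 bp from the 5′ end of F52D10.4, so no other coding gene lies near them. On the 3′ side of par-5, 747 bp separate it from M117.1, which had no IDR summit within 500 bp of its 5′ end (nearest 5321 bp). The same held for the ncRNA genes M117.9, M117.10 and M117.13 on that side.

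Genes annotated as ncRNA lay beneath or beside all 3 IDR summits, on either strand. At ftt-2 the stronger summit lay 12 bp from the 5′ end of F52D10.7 (11605853 to 11605989), just outside it, and the second lay inside F52D10.9 (11606129 to 11606277). F52D10.12 and F52D10.11 lie between these and ftt-2, 139 and 177 bp from the gene. At par-5 the summit lay inside both M117.11 and M117.12, which overlap on opposite strands between par-5 and M117.3. Of the nuclear IDR summits 181 of 923 (19.6%) lay inside a gene annotated ncRNA, and such genes number 7764 on nuclear chromosomes. The share that lay beside such a gene was not counted, so the stronger ftt-2 summit has no matching share. What these transcripts do is not annotated in the sources used here.

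The 2 ftt-2 summits were as close as the lists allow. They lay 199 bp apart, and their regions overlapped by 99 bp. In replicate 1 the gap was 200 bp and in replicate 2 it was 205 bp. No list has nuclear summits closer than 199 bp, and 86 of 923 nuclear IDR summits (9.32%) had another within 250 bp. The regions measured 359 and 237 bp, while the IDR list has a median width of 460 bp and 85 regions narrower than that. The par-5 region had the median width. Whether 1 broad signal was divided in 2 cannot be told from region lists.

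Weaker regions followed on both sides of ftt-2. Its window held 7 pooled summits and the par-5 window held 4, in windows of 11712 and 11419 bp, against a median of 1 and a 90th percentile of 4 over all coding genes. Inside ftt-2 a region with its summit at 11604932, in a coding exon 480 bp from the 5′ end of F52D10.3a.1, scored 73.62 (rank 1726 of 13472). It was found at the same base in replicate 1 (score 33.27, -log10 q-value 0.573) and at 11604904, in an intron, in replicate 2 (score 37.66, -log10 q-value 0.983). A further upstream region at 11607347, 1928 bp from the gene, scored 84.36 (rank 1213), with 25.06 in replicate 1 and 53.77 in replicate 2. The one downstream of the gene, at 11600607, scored 67.97, with 22.76 in replicate 1 and 43.03 in replicate 2. For the regions at 11607347 and 11600607 the replicate 1 scores lay below that list's median of 25.13. Their -log10 q-values in replicate 1 were 0.145 and 0.072, too low to tell them from background there. In replicate 2 these values were 1.97 and 1.47. At 11608143, 2724 bp upstream, the pooled score was 41.92 (rank 8075), with 25.52 in replicate 2 at 11608284 and no summit in replicate 1. The -log10 q-values of that entry were 0.105 pooled and 0.264 in replicate 2, too low to tell it from background. Summits at 11605105 (19.82) and 11607540 (21.93) were in replicate 2 only. None of these passed the IDR threshold.

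Both paralogues had a weak region in the 3′ UTR, and in each case replicate 1 had none there. At ftt-2 the summit lay 139 bp from the 3′ end with a pooled score of 37.51 (rank 11032 of 13472) and 30.98 in replicate 2. At par-5 it lay 180 bp from the 3′ end with a pooled score of 47.48 (rank 5730) and 27.93 in replicate 2. A pooled summit inside the gene and within 200 bp of its 3′ end was found for 384 of 19973 coding genes (1.92%). The pooled median was 44.85, so the ftt-2 score lay below it and the par-5 score just above. The -log10 q-values were 0.046 at ftt-2 and 0.214 at par-5 in the pooled list, and 0.531 and 0.367 in replicate 2. At such low values these entries cannot be told from background.

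The other par-5 regions lay at or beyond M117.3. A pooled summit at 11822329, in an intron of M117.3 and 213 bp from the IDR summit, scored 58.37, with 36.75 in replicate 2 at 11822304. The replicate 1 summit at 11822282 was nearer to this region than to the IDR summit. At 11824659, 2735 bp upstream of par-5, the pooled score was 42.35 and the replicate 1 score 20.86, and replicate 2 had no summit. The -log10 q-values there were 0.113 pooled and 0.0307 in replicate 1, too low to tell this entry from background.

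Both genes have a coding sequence of 744 bases in 4 coding exons, with 590 of 741 aligned bases identical (79.6%). The longest word that a ftt-2 window shares with the par-5 window on either strand was 10 bases for the stronger summit and 8 for the second, and the 2 ftt-2 windows share at most 8 bases with each other. The GC content was 42.4% at the stronger ftt-2 summit, 49.7% at the second and 53.6% at the par-5 summit, against a median of 50.3% over windows of equal length at all 923 nuclear IDR summits. Of those windows 11.1% had a lower GC content than the stronger ftt-2 summit. All 116 words of 36 bases in each of the 3 windows occur once in the genome, so reads of that length can be placed uniquely there.

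Matches to 8 motifs were searched on both strands, and each is spelled out with its share. IDR windows have a median GC content of 50.3% and the upstream windows one of 33.1%, and the part of base composition in the shares was not tested. GTCAT, part of the site of the stress factor SKN-1, occurred in the second ftt-2 window 11 bp from the summit and in the par-5 window 19 bp from it. It occurs in 15% of IDR windows and in 20% of windows of equal length just upstream of coding genes. CACCC occurred in the second ftt-2 window, 9 bp from the summit, and in 26.7% of IDR windows against 9.77% of upstream windows. GAGAGA occurred in the par-5 window, and in 38.2% of IDR windows against 12.9% of upstream windows. The motif TTTCTC, whose matches can overlap those of the previous one, also occurred in the par-5 window, and in 33.5% of IDR windows against 28.7% of upstream windows. Neither was in the ftt-2 windows. The other 4 motifs were in none of the 3 windows. GTAAACA, a site that DAF-16 binds, occurs in 1.73% of IDR windows and 2.7% of upstream windows. The E-box CACGTG occurs in 2.93% and 3.45%, and the heat shock motif GAANNTTC in 4.33% and 9.44%. The TATA box motif TATAAA occurs in 7.15% and 25.5%.

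Genes of pathways in which 14-3-3 proteins act were counted in 3 lists, which hold 18 cell polarity genes, 19 of insulin signalling and DAF-16, and 18 of kinase signalling, checkpoints and nuclear export, and all 55 were matched. None of the 55 had an IDR summit within 500 bp of a 5′ end. With 2.44% of all coding genes having one, a count of 0 in lists of this size is near the background. Within 500 bp, 15 of the 55 (27.3%) had a pooled summit, against 4080 of 19973 coding genes (20.4%). Their highest scores ran from 35.77 to 83.1, all below the IDR edge of 95.16, and 5 of the 15 lay below the pooled median of 44.85. The higher ones included par-1, a polarity kinase gene (76.56), lgl-1, which encodes a cortical polarity protein (83.1), lit-1, a kinase gene of Wnt signalling (74.27), and lin-45, the Raf kinase gene (61.31). These 4 were chosen after their values were seen.

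In the wider window of 5000 bp on each side, 11 of the 55 genes (20%) had an IDR summit, against 11.3% of coding genes. The 55 genes are longer, with a median window of 16643 bp against 12027 bp over all coding genes, and the part of window length in the difference was not tested. Those named here were chosen after their values were seen. Of the 4 polarity genes with one, 3 are plk-1, a Polo kinase gene (131.2), par-3, an anterior PAR scaffold gene (130.5), and nmy-2, a non-muscle myosin gene (107.6). In the insulin list it was pptr-1, a PP2A regulatory subunit gene (130.5), and daf-16 (108.2, in an intron 1374 bp from the nearest 5′ end). In the third list hda-4, a class II histone deacetylase gene (159.3), let-60, the Ras gene (134), pop-1, the TCF gene (133.3), lit-1 (122.6) and mpk-1, the ERK gene (119.7), had one. The summits of plk-1, par-3 and pptr-1 lay outside the gene on its 3′ side, 5280, 10631 and 12645 bp from its own nearest 5′ end. At these summits, and at those of nmy-2 and let-60, a 5′ end of another coding gene was nearer. At daf-16, hda-4, pop-1, lit-1 and mpk-1 none was nearer. A summit in the window therefore need not belong to the gene named. The scores named here lay between those of par-5 and the second ftt-2 summit.

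The genes most like each paralogue were picked by the number of IDR summits in the window and the top scores in the pooled list and both replicates. Likeness is the Euclidean distance of the log2 scores over these 3 lists. Among 227 coding genes with 2 IDR summits and none shared with ftt-2, the nearest were lrch-1 on X (distance 0.0978, with scores of 362.7, 165.2 and 198), sulp-3 on X (0.259, with 359.5, 150.1 and 209.7) and alh-3 on IV (0.369, with 377, 149.5 and 232.3). For par-5, 1974 genes with 1 IDR summit were candidates, and the nearest were H12I19.115, nkcc-1 and srz-42 on IV, which share a single region (distance 0.0248, with scores of 96.93, 29.18 and 68.95).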

How the data were processed

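Region lists for SYD-9-GFP chromatin in 2 biological replicates, for the pooled alignments and for the IDR set were used as the authors deposited them, in ce11. Each deposited region carries a score and a -log10 q-value, both the authors' own. Readme files deposited with the samples state which alignments each list came from. The program that called the regions and the threshold of the IDR are not given in the sources used here. Lists in ce10 were not used. The summit is the region's start plus its summit offset, and coordinates count from 1.

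From these files, distances were computed with Python 3.11.15 and numpy 2.4.6, from the 5′ ends of all annotated transcripts (Ensembl release 115). The functions were tested on simulated summits with known answers. The members, the windows and the partner gene lists were chosen with earlier results of these data known. Named genes are both members, every gene overlapping their windows of 5000 bp, up to 4 partner genes of each list with an IDR summit within 500 bp (none had one), and the 3 most alike genes. The nearest coding genes beyond the ftt-2 window and the other partner genes were named outside this rule, after their values were seen. A summit in several features was assigned to a coding exon first, then to a UTR, then to an intron. The coding sequences were aligned globally. No test was run, and because depth is unknown no interval was computed. The value of 1 partner gene is not reported here.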

Additional observations from a re-analysis of the deposited data

How the results depend on the processing

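The pair of IDR summits at ftt-2 stayed at 2 in every alternative tried: windows of 2000 and 10000 bp, either replicate alone (as many top regions as the IDR list holds), the 470 highest-scoring IDR regions, and any overlap with the window. Within 500 bp of a 5′ end it had none. Its top rank of 29 became 26 to 28 with either replicate alone, and 1 when ranked by the -log10 q-value, where 53 regions share the highest value. The par-5 summit count of 1 became 0 among the 470 highest-scoring regions and 0 to 1 with either replicate alone, where it was lost without replicate 2. Its rank of 921 of 941 became 562 of 20425 in replicate 2 and 3290 of 10468 in replicate 1, lists of unlike length. The replicate 1 rank is that of the summit at 11822282, in the 5′ UTR of M117.3. Ranked by the -log10 q-value, the par-5 region was 662 of 941. That value was 1.83 for par-5, 2.02 for the stronger ftt-2 region and 1.68 for the second, so par-5 lay between them. Measured from the RefSeq gene start, the distances were 582 bp for ftt-2 and 199 bp for par-5. The count of coding genes with a summit within 500 bp was 282 at 250 bp and 235 among the 470 highest. For the 5000 bp window, 1303 genes had one at 2000 bp, 3646 at 10000 bp and 1188 among the 470 highest. With either replicate alone the polarity list had 0 to 1 gene (par-1, without replicate 1) and the kinase list 0 to 1 (lit-1, without replicate 2), and at 1000 bp the kinase list had 1 (lit-1). No paired analysis was possible because the series has 1 group. The lists hold no depth, which limits how far a missing replicate 1 region can be read.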
